A study of Mus musculus with 2 samples.

Results

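The mitochondrial carrier family, Slc25, was followed in epididymal white adipose tissue of male mice. Wild-type mice were compared with knockouts of Ppard, the gene of the nuclear receptor PPARβ/δ. Members were the probe sets whose annotation names exactly 1 gene with a symbol of the form Slc25a followed by a number, with Slc25a20 left out. The rule found 63 probe sets of 32 genes among 22690 probe sets of the value table, 20393 of which name 1 gene and together represent 12394 genes. The probe annotation used here belongs to a smaller version of the mouse array than the design text names, so absent genes are absent from this table only. A further 14 Slc25a genes of the GRCm38.p6 gene records had no probe set under the rule and were not analysed here, among them the citrate carrier Slc25a1, the aspartate/glutamate carrier Slc25a12 and the germ cell adenine nucleotide translocase Slc25a31.

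Both groups were male mice on standard chow, and the sample titles label both as control pools. The wild-type pool came from mice labelled 129S1/SvJae and aged 12 to 16 weeks. The pool lacking PPARβ/δ came from knockout mice of a mixed Sv129/C57BL/6 background aged 12 weeks. The design text has the wild-type mice as their littermates, so the sources differ on strain and the pools may differ in it. Each pool mixed the RNA of 5 animals and was hybridised to a single array, so every gene has 1 wild-type and 1 knockout value. No replicate spread, standard error or test exists, and the differences describe these 2 arrays. Where 2 intensities are given, that of the wild-type pool comes first. In whole tissue, fewer cells of a type and less RNA per cell cannot be told apart.

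Mitochondrial carriers are small proteins of the inner mitochondrial membrane, built from repeated pairs of membrane-spanning helices. Each exchanges or imports particular solutes that the membrane otherwise holds back, such as ADP and ATP, phosphate, di- and tricarboxylates, amino acids, nucleotides, cofactors and iron. In adipocytes they supply ATP synthesis, export carbon for fatty acid synthesis and link amino acid breakdown in the matrix to the cytosol.

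Of the 32 genes, 23 had a probe set that reached an intensity of 32 (log2 of 5), the floor used here in place of detection calls, on at least 1 array. These 23 genes held 40 probe sets above the floor, and each gene was represented by the brightest of them. In the knockout pool 17 of the 23 were lower and 6 higher, and the median log2 difference (knockout minus wild type) was -0.57, with quartiles of -1.10 and 0.01. With another floor the median was smaller in size, -0.34 at log2 4 (27 genes) and -0.47 at log2 6 (16 genes). With no floor, over all 32 genes, it was -0.30. Over all 6533 genes above the floor the median was -0.08, with quartiles of -0.50 and 0.42, and 55.5% were lower. At least 2-fold lower were 7 carriers, Slc25a44, Slc25a42, Slc25a15, Slc25a37, Slc25a51, Slc25a10 and Slc25a35, which is 30.4% of the 23 against a background of 9.14% of all genes above the floor. A single carrier, Slc25a33, was higher by 2-fold or more, which is 4.35% against a background of 13.7%. Counted by probe set, 7 of 40 were at least 2-fold lower (17.5%, background 8.99%) and 1 was higher (2.50%, background 12.5%). In the knockout pool 2 of the 7 lower carriers, Slc25a35 and Slc25a42, were below the floor. When each value under the floor was raised to it, 5 carriers were at least 2-fold lower (background 7.99%) and 1 was higher (background 11.4%).

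**Figure D1:**
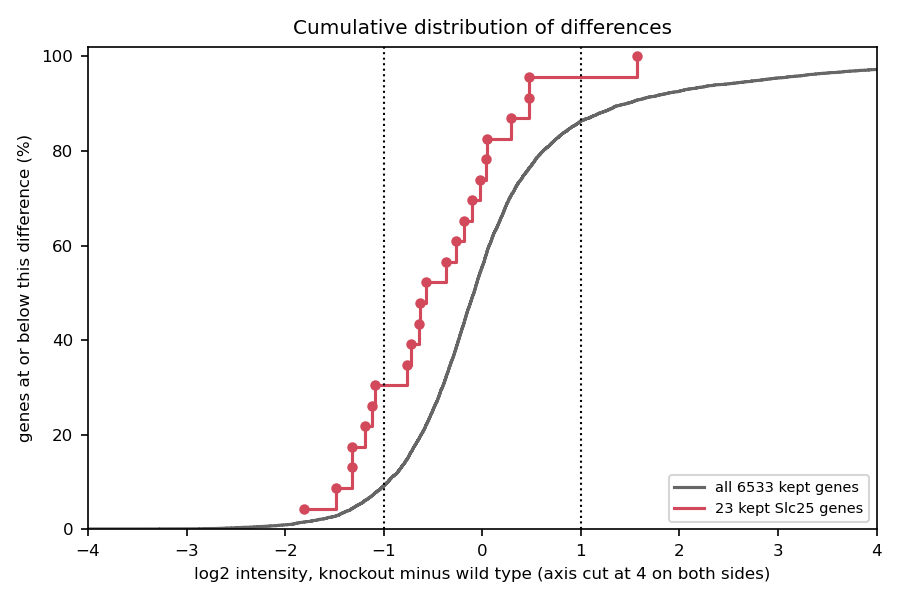
Cumulative share of genes (%) against the log2 difference, knockout minus wild type, for the 23 Slc25 genes above the floor (points) and all 6533 genes above the floor (grey); dotted lines mark 2-fold. The Slc25 curve lies to the left of the grey curve over most of its range, with medians of -0.57 and -0.08, and only Slc25a33 lies beyond the upper dotted line.

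Marker genes of the cell types of the pad differed between the pools in the same comparison. Each of 20 germ cell markers was over 2-fold higher in knockout fat (median 4.53). Their summed intensity was 3845 in wild-type and 68815 in knockout fat. Tssk1, Tssk2, Sycp1, Ddx4, Dazl, Acr, Acrv1 and Zpbp were under the floor in wild-type fat, so the floor sets their direction. With such values raised to the floor the median was 4.31. Of all genes above the floor 13.7% were at least 2-fold higher and 55.5% were lower. Of 13 adipocyte markers above the floor 12 were lower (median -1.20), with summed intensities of 71272 and 48805. The adipocyte hormone gene Adipoq was at 10259 and 8030, whereas 6 of 7 brown fat markers, Ucp1 among them, were under the floor on both arrays. Of 10 epididymis markers 9 were higher (median 0.32), with sums of 54870 and 64845. All 12 macrophage markers were lower (median -0.77, sums 5787 and 3472). Among them Cd14 and Cd163 were under the floor in knockout fat, so the floor sets their direction. Also lower were 6 of 7 endothelial markers above the floor (median -1.04, sums over all 8 of 1067 and 564). None of the markers in these lists was at 0 on either array. The 6 probe sets of the poly-A control dap, the poly-A control above the floor, differed by -1.03 to -0.57, whereas the 12 hybridisation control probe sets above the floor differed by -0.21 to 0.21. The part that these differences have in the carrier values was not tested. Ppard itself was below the floor, with intensities of 6.58 and 6.27, and gives no check of the genotype labels.

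Among the carriers of carboxylates, the dicarboxylate carrier Slc25a10 was over 2-fold lower in the knockout pool and the oxoglutarate/malate carrier Slc25a11 was not. Slc25a10 exchanges malate or succinate for phosphate and is abundant in white fat, where it supplies malate to citrate export and lipogenesis. Its brighter probe set had an intensity of 417 in wild-type and 191 in knockout fat, 2.18-fold lower. The second probe set, at 232 and 119, was lower by 0.96 on the log2 scale, so both pointed the same way, with an SD of 0.11 between them. Slc25a11, which moves malate inward and oxoglutarate outward in the malate-aspartate shuttle, was at 318 and 314, a log2 difference of -0.02 that turned positive on centring (0.07) or with the intensity trend removed (0.12).

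Of the enzymes that work with these carriers, none above the floor was 2-fold different at the probe set that represents it. Of all genes above the floor 9.14% were at least 2-fold lower and 13.7% at least 2-fold higher. In the malate-aspartate shuttle, the malate dehydrogenases Mdh1 (4156 and 3292) and Mdh2 (4746 and 3507) differed by -0.34 and -0.44, and the mitochondrial aspartate aminotransferase Got2 (1864 and 2149) by 0.20. The cytosolic aminotransferase Got1 was below the floor. Over 5 enzymes of the citrate-pyruvate cycle above the floor, the median was -0.10. Pyruvate carboxylase, Pcx, was lowest (4687 and 2794, log2 difference -0.75), and malic enzyme, Me1, was highest (830 and 1244, 0.58). The 5 probe sets of Pcx ran from -1.0 to -0.57, with a mean of -0.81. ATP citrate lyase, Acly, which splits exported citrate, was at 4304 and 5157.

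Of 6 carriers of amino acids 4 were above the floor. Of these 3 were lower, 2 of them at least 2-fold, including the lowest difference among the 23 carriers. The background over all genes above the floor was 55.5% lower and 9.14% at least 2-fold lower. Slc25a44, which imports branched-chain amino acids into the matrix, had an intensity of 128 in wild-type and 36.7 in knockout fat, 3.50-fold lower. Its probe sets disagreed in size, since another one was at 40.1 and 30.1 (under the floor), at least 1.25-fold lower. The mean log2 difference of both was -1.11 as measured and -1.07 with that value raised to the floor. Slc25a15, which exchanges ornithine and citrulline across the inner membrane, was at 87.5 and 35.1, 2.50-fold lower, at its only probe set above the floor. The glutamate carrier Slc25a22 was at 45.5 in wild-type fat and at 26.8 in knockout fat, under the floor and therefore at least 1.42-fold lower. Slc25a29, a carrier of basic amino acids, was at 44.6 and 45.8, and its other 4 probe sets were below the floor. The aspartate/glutamate carrier citrin, Slc25a13, and the second ornithine carrier, Slc25a2, were below the floor in both pools.

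Of the enzymes that use ornithine and arginine, 4 were above the floor, with a median of -0.17 that turned to 0.04 with the mean of probe sets; none was 2-fold different at the probe set that represents it. Ornithine aminotransferase, Oat, was at 1622 and 1037, a log2 difference of -0.65, on the side of Slc25a15. Ornithine decarboxylase, Odc1, which begins polyamine synthesis, was at 1352 and 2386, a log2 difference of 0.82, on the other side. That is the lowest of its 3 probe sets, which reached 2.01 and averaged 1.36, past 2-fold.

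Among 5 carriers of phosphate and adenine nucleotides above the floor, 4 were lower, none of them by 2-fold, and the median was -0.19. The background over all genes above the floor was 55.5% lower and 9.14% at least 2-fold lower. The phosphate carrier Slc25a3, which brings in the phosphate for ATP synthase, was at 2473 and 2307, a log2 difference of -0.10 that turned positive (0.03) with the intensity trend removed. Adenine nucleotide translocase 1, Slc25a4, the isoform of heart and skeletal muscle, was at 4841 and 3254. Its 3 probe sets above the floor differed by -0.72 to -0.43. Translocase 2, Slc25a5, the isoform of growing and many other tissues, was at 3390 and 2966, and its 7 probe sets above the floor ran from -0.43 to 0.18 with a mean of -0.23. All of these probe sets carry a suffix for probes that match several transcripts, and the translocases are close paralogs, so their separate values are uncertain. The skeletal muscle markers were mostly below the floor in both pools (6 of 7), the exception being Myl1, at 107 and 47.2.

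Among the ATP-Mg/phosphate carriers, which adjust the adenine nucleotide content of the matrix, Slc25a23 was at 71.2 and 43.3, a log2 difference of -0.72. Slc25a25 was at 44.7 and 46.3, a log2 difference of 0.05, and Slc25a24 was below the floor. For comparison, all 16 genes of a list of ATP synthase genes were above the floor. Of these 14 were lower (background 55.5% of all genes), none by 2-fold, with a median of -0.28. The ring subunit gene Atp5g2 was lowest (1083 and 703, -0.62), and Atpif1, the inhibitor of the enzyme, was highest (1690 and 2241, 0.41). Slc25a3 and Slc25a5 lay within the range of the listed genes, and so did Slc25a4.

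**Figure D2:**
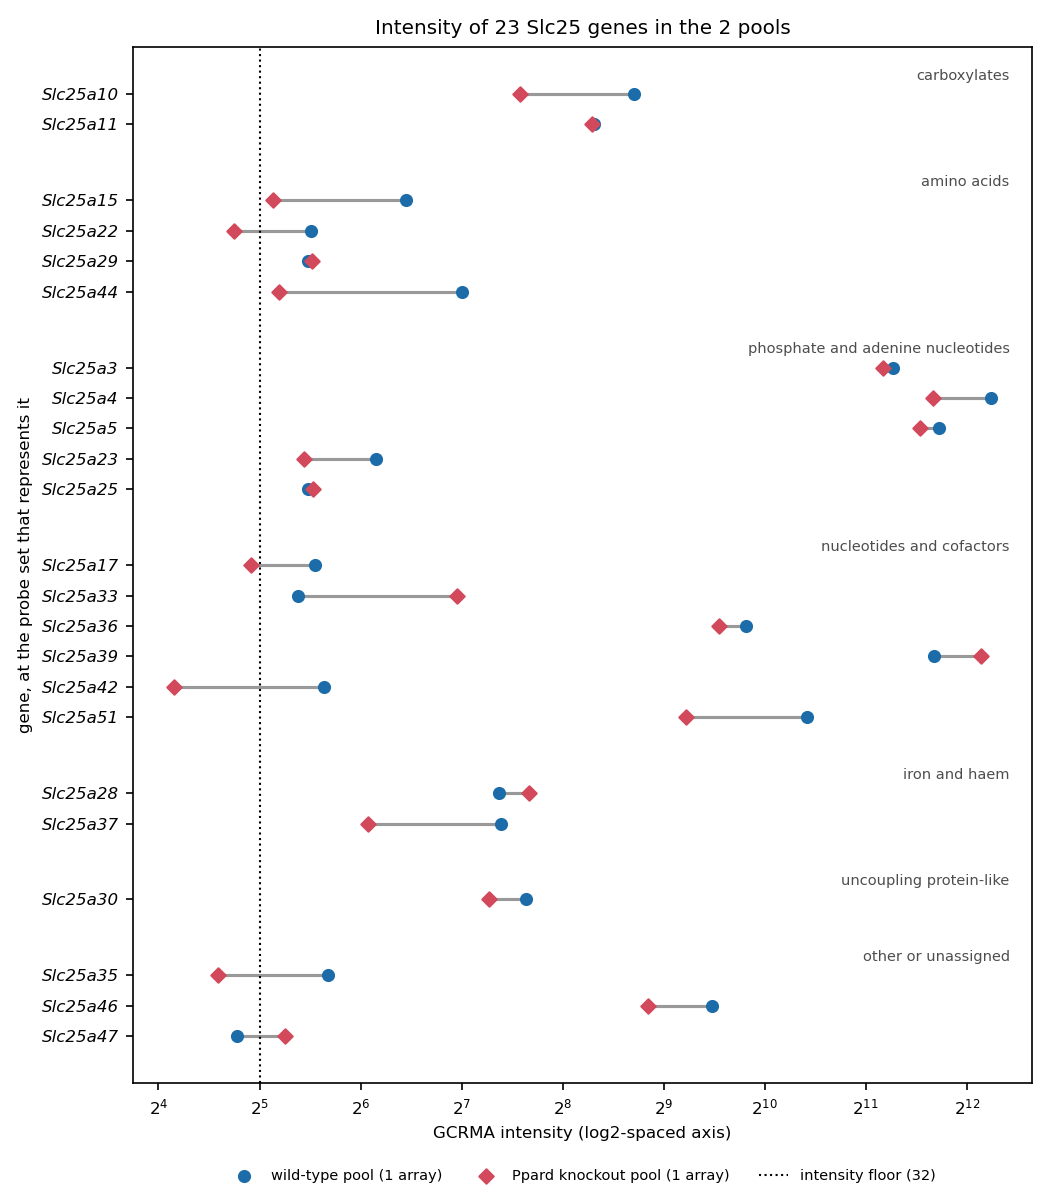
GCRMA intensity (log2-spaced axis) of 23 Slc25 genes in the wild-type pool (circles) and the knockout pool (diamonds), 1 array each, grouped by what the carrier moves; the dotted line is the floor of 32. Slc25a44 (128 and 36.7) and Slc25a51 (1368 and 598) show wide gaps to the left, Slc25a33 (41.6 and 124) a wide gap to the right, and Slc25a11 (318 and 314) almost none.

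Of 6 carriers of nucleotides and cofactors above the floor 4 were lower, 2 of them at least 2-fold. The other 2 were higher, among them the carrier at least 2-fold higher. The background over all genes above the floor was 55.5% lower, 9.14% at least 2-fold lower and 13.7% at least 2-fold higher. Slc25a33, a carrier of pyrimidine nucleotides whose gene responds to insulin and growth factors, had an intensity of 41.6 in wild-type and 124 in knockout fat, 2.97-fold higher, at 1 probe set. Slc25a36, which also carries pyrimidine nucleotides, was at 902 and 748, and its 2 probe sets differed by -0.27 and -0.17. The NAD carrier Slc25a51 was at 1368 and 598, 2.29-fold lower, and a further probe set, at 42.4 and 26.7 (under the floor), was at least 1.32-fold lower. Slc25a42, which takes coenzyme A into the matrix in exchange for adenine nucleotides, was at 49.9 in wild-type fat and at 17.8 in knockout fat, under the floor and so at least 1.56-fold lower.

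Slc25a39, needed for glutathione import into mitochondria, was higher at all 3 of its probe sets. They were at 3264 and 4521, at 966 and 1310, and at 181 and 291, log2 differences of 0.47, 0.44 and 0.68. All 3 carry a suffix for probes that match several transcripts, and Slc25a39 had no value without such probe sets. The peroxisomal carrier Slc25a17, which brings coenzyme A, FAD and NAD into peroxisomes, was at 46.9 and 30.2, at least 1.47-fold lower. The carrier of S-adenosylmethionine, Slc25a26, lay just under the floor, with a highest intensity of 27.7.

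The iron importers of mitochondria, the mitoferrins, pointed in opposite directions. Mitoferrin 1, Slc25a37, the importer that developing red cells depend on, had an intensity of 168 in wild-type and 67.4 in knockout fat, 2.49-fold lower. Mitoferrin 2, Slc25a28, the importer of most other tissues, was at 165 and 203, a log2 difference of 0.29. Each rests on 1 probe set with a suffix for probes that match several transcripts. The 3 erythroid markers above the floor, Alas2, Slc4a1 and Hbb-b2, passed it only in the wild-type pool, so the floor sets their lower direction. Hba-a1 and Epb42 were below it on both arrays. Alas2, the erythroid enzyme that starts haem synthesis, was at 155 and 21.7, at least 4.83-fold lower. Slc4a1, the anion exchanger of the red cell membrane, was at 44.8 and 17.8, at least 1.40-fold lower, and the globin Hbb-b2 was at 51.5 and 23.4, at least 1.61-fold lower. The sums over 5 erythroid markers with a probe set were 272 and 80.6, and their part in the value of Slc25a37 was not tested. The housekeeping enzyme Alas1 was at 886 and 515, or -0.78 on the log2 scale, but a second probe set differed by 0.13. Ferrochelatase, Fech, which inserts iron into haem, was at 674 and 371, a log2 difference of -0.86, and its 3 probe sets ran from -1.24 to -0.86. Of 11 genes of haem and iron-sulphur synthesis above the floor, 8 were lower, 1 of them, Alas2, at least 2-fold, with a median of -0.30. The background over all genes above the floor was 55.5% lower and 9.14% at least 2-fold lower, so the 1 of 11 is near that share. The glycine carrier of haem synthesis, Slc25a38, was below the floor.

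Of the uncoupling protein-like carriers, Slc25a30 had probe sets that disagreed in direction. Its 3 probe sets above the floor were at 199 and 155, at 88.0 and 121, and at 35.8 and 26.0 (under the floor). The first differed by -0.37 and the second by 0.46 on the log2 scale, and the third was at least 1.12-fold lower, so its direction is not settled, although its brightest probe set counts it among the lower carriers above. Slc25a14 was below the floor, as were the uncoupling proteins Ucp1, which makes heat in brown fat, and Ucp3. The carrier homologues of the outer membrane, Mtch1 and Mtch2, were at 1255 and 1239 and at 1989 and 2601. The 3 probe sets of Mtch2 spanned -0.15 to 0.39.

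Slc25a46, a carrier relative of the outer membrane that takes part in mitochondrial fission and fusion, was at 715 and 460. Both of its probe sets were lower, with log2 differences of -0.64 and -0.77. Slc25a35, whose substrate is not settled, was at 51.3 in wild-type fat and at 24.1, under the floor, in knockout fat, which is at least 1.60-fold lower. Slc25a47, a carrier known from liver, was at 27.5 (under the floor) and 38.1, which makes it at least 1.19-fold higher. Slc25a45, Slc25a48 and Slc25a53 were below the floor on both arrays. Together, the 9 genes below the floor reached intensities between 7.13 and 27.7, and no difference is read from them.

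**Figure D3:**
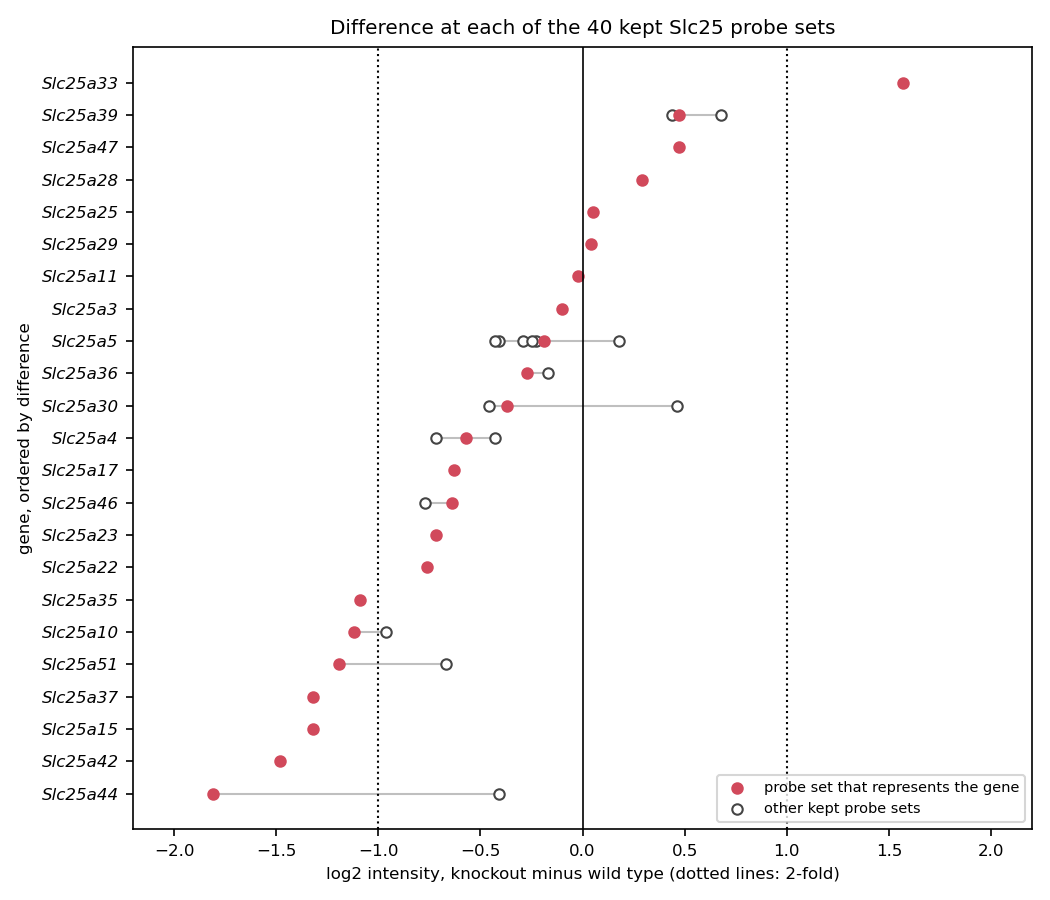
Log2 difference, knockout minus wild type, at each of the 40 Slc25 probe sets above the floor, with genes ordered by the probe set that represents them (filled) and other probe sets open; dotted lines mark 2-fold. Slc25a44 spans -1.81 to -0.41 as measured, Slc25a30 lies on both sides of 0, and the 3 probe sets of Slc25a39 all lie on the higher side.

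How far probe sets of the same carrier differ gives part of the technical error. Of the 9 carriers with several probe sets above the floor, 7 had all of them on 1 side, the exceptions being Slc25a5 and Slc25a30. That is 77.8%, near the 72.9% over 2137 genes with several probe sets above the floor. The spread (SD) of log2 differences among the probe sets of a carrier had a median of 0.15 and ran from 0.07 for Slc25a36 to 0.98 for Slc25a44, against a median of 0.25 over those 2137 genes. Of the 8 carriers at least 2-fold different, 3 had a second probe set above the floor. It was lower as measured for Slc25a10, Slc25a44 and Slc25a51, by less than 2-fold, with the knockout value of the last 2 under the floor. The other 5 rest on a single probe set above the floor.

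Genes of the import path that brings carriers to the inner membrane showed no common direction. Carriers are made in the cytosol, recognised by Tomm70a, passed through the Tomm40 pore and guided by small Timm chaperones to the Timm22 complex. Of 11 such import genes above the floor 7 were lower and 4 higher, with a median of -0.25, while 55.5% of all genes were lower. At least 2-fold higher were 2 of the 11, against a background of 13.7% of all genes above the floor. Timm22 itself was below the floor, as were Timm9 and Agk. The receptor Tomm22 was at 243 and 611, 2.51-fold higher, and differed by 0.68 on the log2 scale at its other probe set. The small chaperone Timm8b was at 185 and 373, 2.02-fold higher. The pore Tomm40 was at 150 and 101, the lowest of the list at -0.58. The probe sets of Tomm70a ran from -0.58 to 0.83, so its direction is not settled.

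Of 9 other transporters of the mitochondrial membranes above the floor, 7 were lower and 2 higher, with a median of -0.35. Among all genes above the floor 55.5% were lower. At least 2-fold lower were 2 of the 9, against a background of 9.14% of all genes above the floor. The serine transporter Sfxn1 was at 1968 and 977, 2.01-fold lower (its probe sets averaged -0.92). The outer membrane protein Tspo was at 1498 and 692, 2.17-fold lower at the probe set that represents it. The 3 probe sets of Tspo ran from -1.92 to -1.11 and averaged -1.6. The pyruvate carrier subunit Mpc1 was at 2911 and 1922, a log2 difference of -0.60. Of the outer membrane channels, Vdac1 was at 1339 and 1051, a log2 difference of -0.35, and its 4 probe sets ran from -0.53 to 0.02. Vdac2 (2560 and 4105) and Vdac3 (1036 and 1492) were higher, by 0.68 and 0.53.

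**Figure D4:**
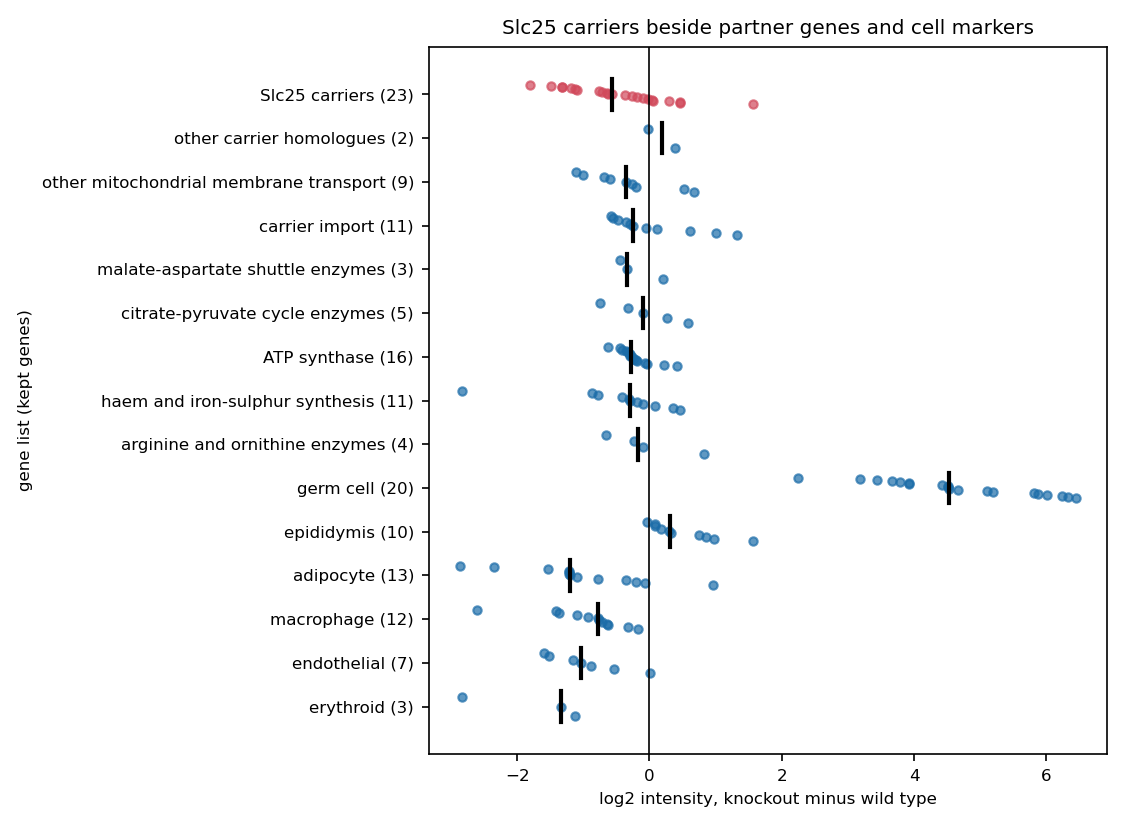
Log2 difference, knockout minus wild type, of each gene above the floor (points) with the list median (black bar) for the Slc25 carriers, partner genes and cell markers; the number of genes is in brackets and lists with 1 gene are not drawn. The carriers have a median of -0.57, ATP synthase genes -0.28, adipocyte markers -1.20 and germ cell markers 4.53.

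Promoters were read for the carriers that were at least 2-fold different, to set the sequence before each start beside its value. RefSeq promoter records of GRCm38.p6 matched 4 of these 8 genes (5 records, since Slc25a15 has 2 starts) and 18 of the 23 carriers above the floor (24 records). The 250 bases before each start follow, for Slc25a15 those before the upstream start, with capitals marking a GGGCGG box or a CACGTG E-box on either strand. They belong to Slc25a10 (chr11:120491587-120491836, plus strand), Slc25a15 (chr8:22398622-22398871, minus strand), Slc25a42 (chr8:70212282-70212531, minus strand) and Slc25a33 (chr4:149774268-149774517, minus strand).
Slc25a10, 2.18-fold lower: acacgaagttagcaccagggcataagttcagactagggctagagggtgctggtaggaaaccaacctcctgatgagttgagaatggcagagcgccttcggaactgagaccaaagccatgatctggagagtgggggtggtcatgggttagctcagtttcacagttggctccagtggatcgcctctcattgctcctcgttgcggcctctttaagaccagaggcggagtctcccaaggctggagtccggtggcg
Slc25a15, 2.50-fold lower: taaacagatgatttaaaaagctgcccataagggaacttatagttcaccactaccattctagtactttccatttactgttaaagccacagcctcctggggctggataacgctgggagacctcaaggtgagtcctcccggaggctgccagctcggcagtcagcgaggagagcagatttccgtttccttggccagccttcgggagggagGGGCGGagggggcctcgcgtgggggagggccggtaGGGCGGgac
Slc25a42, at least 1.56-fold lower: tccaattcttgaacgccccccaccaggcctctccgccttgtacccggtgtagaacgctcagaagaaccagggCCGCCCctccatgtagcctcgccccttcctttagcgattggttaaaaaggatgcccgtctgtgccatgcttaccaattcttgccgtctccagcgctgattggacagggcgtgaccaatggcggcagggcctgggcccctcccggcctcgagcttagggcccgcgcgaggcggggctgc
Slc25a33, 2.97-fold higher: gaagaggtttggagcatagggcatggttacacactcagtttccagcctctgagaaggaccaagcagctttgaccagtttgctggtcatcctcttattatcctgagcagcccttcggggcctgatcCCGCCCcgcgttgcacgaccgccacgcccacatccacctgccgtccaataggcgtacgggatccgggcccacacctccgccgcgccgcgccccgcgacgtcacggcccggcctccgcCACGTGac

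The hexamer AGGTCA, which nuclear receptors such as the PPARs bind in pairs, was searched on both strands of these windows, alone and as the repeat AGGTCANAGGTCA, which contains it. Neither was in the 5 windows of these genes, and 2 of the 24 windows of carriers above the floor held the hexamer. Of all 32851 promoter records 14.0% held the hexamer and 0.0335% the repeat. The GGGCGG box, which Sp1 binds, was in 4 of the 5 windows and in 20 of the 24, against 32.7% of all records. The median GC content of the 24 windows was 58.8% and that of all records 52.4%. The E-box CACGTG was in 2 of the 5 windows, the one before the downstream start of Slc25a15 (lower) and that of Slc25a33 (higher), in 3 of the 24 and in 6.02% of all records. The windows are short, the records include all kinds of gene, and a match is only a match of letters.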

How the data were processed

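Epididymal fat of 2 genotypes was measured on 1 array each, from RNA pooled over 5 animals. The intensities deposited by the authors come from GCRMA 2.20 according to the submitters' processing notes. They run from 1.91 to 36322 and are on a linear scale, so log2 was taken first, and nothing was normalised again. The GCRMA background step compresses dim values, which affects folds near background. The set of arrays normalised jointly is not stated in the labels.

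Genes were named from the array annotation, and 20364 of 20393 probe sets with 1 gene matched GRCm38.p6 records by identifier. Probe sets naming several genes (691) or none (1606) were left out. A probe set was kept at log2 5 or more on at least 1 array, and the kept probe set with the highest mean represented its gene. This choice says nothing about levels between genes. A fold with 1 value under the floor was computed against 32 and is printed as "at least". Calculations used Python 3.11.15, pandas 2.3.3 and statsmodels 0.14.6, and the counting was tested on simulated data.

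With 1 array per genotype no test was run. The members, role groups and lists were chosen with earlier results of these data known, so no list is independent evidence. All members were described; partner genes are named if at least 2-fold different or at the extremes of their list, and a few others (among them Got2, Acly, Oat, Fech, Alas1, Mpc1 and the Vdac genes) were chosen after their values were seen. Alternatives were another floor, none, values set to the floor, the mean of probe sets, no probe sets of shared sequence, centring and removal of the intensity trend.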

Additional observations from a re-analysis of the deposited data

How the results depend on the processing

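Under 8 alternative settings the carriers' median stayed negative, between -0.72 (without probe sets of shared sequence, 15 genes) and -0.30 (no floor, 32 genes), the second being a shift of over 0.25. The median of all genes ran from -0.11 (without probe sets of shared sequence) to 0.03 (intensity trend removed), against -0.08. The count at least 2-fold lower lay between 5 and 7. The count at least 2-fold higher was 1, but 2 with a floor of log2 4 and 2 with no floor, where Slc25a2, below an intensity of 32 on both arrays, was added. Of 169 differences of single carriers under these settings, 5 moved by over 0.25, and no 2-fold difference changed sign. A carrier keeps its value under another floor or none, and centring shifts all carriers alike by less than 0.25. The mean of probe sets changes nothing for a carrier with 1 probe set above the floor. Many of the 169 could therefore not move, and the count of 5 does not measure stability. Slc25a15, Slc25a33, Slc25a37 and Slc25a44 were past 2-fold in every setting that gave a value. Slc25a35 and Slc25a42 lost it with values set to the floor (-0.68 and -0.64), Slc25a51 with the mean of probe sets (-0.93) and Slc25a10 with the intensity trend removed (-0.99). Slc25a3 and Slc25a11 turned positive with that trend removed (0.03 and 0.12), and Slc25a11 also on centring (0.07). The median of the skeletal muscle markers was 0.26 with no floor, where 6 of 7 lie below it; the cause was not tested. No paired analysis was possible because each genotype has 1 pooled array. For the same reason no array could be left out, and differences of genes near the floor are limited by signal over background.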
